A study of Homo sapiens with 6 samples.

Results

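The transcripts described here encode the enzymes of the lower part of glycolysis, from the triose phosphates to lactate, with both enolases among them. The 8 genes were taken by symbol: TPI1, GAPDH, PGK1, PGAM1, ENO1, ENO2, PKM and LDHA. All 8 were among the 11351 gene symbols with a value. They were measured by RNA sequencing in IMR32 cells, an established human neuroblastoma line with an amplified MYCN gene. The cells had been exposed for 24 h to 20 µM sAKZ692, a small molecule known by a code name and named as an NRF2 activator in the study's design, or to DMSO, its solvent. Each group had 3 libraries, numbered as replicates 1 to 3, and nothing in the labels says whether they came from separate cultures, so p-values measure the spread between these libraries, which may be technical. The study's title links a reactive glycolytic metabolite to the NRF2 repressor KEAP1, and the comparison shows how the transcripts of this stretch of the pathway differed between compound and solvent.

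Glycolysis splits glucose into triose phosphates and oxidises them to pyruvate. The lower part yields the ATP and NADH of the pathway, and lactate dehydrogenase then returns NADH to NAD+ by turning pyruvate into lactate. Several steps are shared out between isoforms. Enolase has a widespread form from ENO1, a neuronal form from ENO2 that is a long-used marker of neurons and neuroendocrine tumours, and a muscle form from ENO3. Lactate dehydrogenase is a tetramer of subunits from LDHA and LDHB.

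Values are TPM, a transcript abundance corrected for length, so that levels can be compared between genes. TPM carries no read counts, and the depth behind each value is unknown. Fold changes are differences of the group means of log2(TPM + 1), sAKZ692 minus DMSO, tested with limma over 9137 genes whose mean reached 1 TPM and adjusted by the Benjamini-Hochberg method. The threshold was an adjusted p of 0.05. The median log2 fold change over all genes tested was 0.14. Replicate 3 of sAKZ692 stood apart: its log2 values correlated with those of replicates 1 and 2 at Pearson's r of 0.971 and 0.972, as a description across genes, against 0.992 between replicates 1 and 2 and 0.994 to 0.995 among the DMSO libraries. Several results that rest on it are given with and without it. Of the 15 noradrenergic neuroblastoma markers listed, 11 were in the table, with a summed level of 3307 to 3514 TPM with sAKZ692 and 2932 to 3105 TPM with DMSO. Of these 11, 2 passed as higher (18.2%, against 24.1% of all genes tested) and none as lower. MYCN alone gave 1376 to 1539 TPM of the sum with sAKZ692 and 1347 to 1430 TPM with DMSO. Replicate 3 did not differ in the same direction in all of these markers. TH, tyrosine hydroxylase, was at 0.971, 1.00 and 5.24 TPM in replicates 1, 2 and 3 of sAKZ692 and at most 0.682 TPM with DMSO. It did not pass the threshold (limma adjusted p = 0.0903). CHGA, chromogranin A, was at 485, 511 and 183 TPM in the same replicates and 271 to 323 TPM with DMSO, and did not pass either (limma adjusted p = 0.578). Of 10 mesenchymal and stromal markers 4 were in the table, at 823, 767 and 1607 TPM in sum in replicates 1, 2 and 3 of sAKZ692 and 929 to 968 TPM with DMSO, most of it VIM, vimentin. Only replicate 3 lay above the DMSO libraries, and replicates 1 and 2 lay below them. Of 7 Schwann and glial markers 3 were in the table, at 9.39 to 13.7 TPM in sum with sAKZ692 and 2.91 to 3.24 TPM with DMSO.

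The largest fall and the only rise among the 8 genes were those of LDHA and ENO2, and ENO1 is the isoform partner of ENO2. The 250 bases before the start site of these 3 genes are printed because they let the opposite movers be compared at the level of sequence. They are RefSeq sequences of build GRCh38.p14, read 5′ to 3′ on the gene's strand, from chr11:18394313-18394562 on the plus strand for LDHA (the first of 2 start sites listed), chr1:8878687-8878936 on the minus strand for ENO1 and chr12:6914330-6914579 on the plus strand for ENO2. Capitals mark every match, on either strand, to the E-box CACGTG, which MYC family proteins can bind, to ACGTG, the core of hypoxia response elements, and to TGACNNNGC, the core of the antioxidant response elements that NRF2 binds.
LDHA: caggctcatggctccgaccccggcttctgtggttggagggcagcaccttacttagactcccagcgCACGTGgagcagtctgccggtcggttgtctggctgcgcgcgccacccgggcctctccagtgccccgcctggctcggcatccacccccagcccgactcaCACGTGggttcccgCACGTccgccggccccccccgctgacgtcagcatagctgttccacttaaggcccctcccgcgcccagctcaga
ENO1: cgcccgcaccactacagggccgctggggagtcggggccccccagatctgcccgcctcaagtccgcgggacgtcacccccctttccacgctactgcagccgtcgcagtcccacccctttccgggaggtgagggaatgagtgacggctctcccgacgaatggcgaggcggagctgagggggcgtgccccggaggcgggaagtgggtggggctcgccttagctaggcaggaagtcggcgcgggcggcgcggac
ENO2: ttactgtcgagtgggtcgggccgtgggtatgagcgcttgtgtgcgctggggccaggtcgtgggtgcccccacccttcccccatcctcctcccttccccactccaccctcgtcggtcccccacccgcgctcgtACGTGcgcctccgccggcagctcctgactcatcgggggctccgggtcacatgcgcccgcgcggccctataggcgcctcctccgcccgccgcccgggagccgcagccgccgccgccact
The LDHA stretch held 2 E-boxes, which begin 185 and 87 bases before the start site, and a further ACGTG core on the opposite strand 73 bases before it. The E-box reads the same on both strands and contains ACGTG, so 4 of the 5 ACGTG matches of LDHA lie inside the E-boxes. The ENO2 stretch held 1 ACGTG core, 118 bases before the start site, and the ENO1 stretch none of the 3 motifs. In windows that also take in the 50 bases after the start site, ACGTG was found for GAPDH (2 matches, in 1 E-box) and PGK1 (3 matches), and TGACNNNGC for GAPDH and PKM (1 match each). The window of PGAM1 and the first of the 2 windows of TPI1 held none, and the second of TPI1 held 1 ACGTG. The window of the second LDHA start site held none of the 3 motifs either. Of all 35116 windows of this length in the RefSeq table, 7.26% held the E-box, 21.4% ACGTG and 13.3% TGACNNNGC. These matches are a description of the letters and say nothing of what binds there.

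With sAKZ692, 6 of the 8 genes fell, 1 rose and 1 did not pass the threshold. LDHA, PGAM1, PKM, ENO1, TPI1 and PGK1 fell, in the order of the size of the fall, ENO2 rose and GAPDH did not pass. Over all genes tested, 32.6% passed, 24.1% as higher and 8.5% as lower with sAKZ692. Higher genes made up 73.9% of these calls, a share that was 41.5% when libraries were rescaled by median ratios and 47.5% under quantile normalization. The median log2 fold change of the 8 genes was -0.47, against 0.14 over all genes. The calls of LDHA, PGAM1, PKM, ENO1 and ENO2 were kept under every alternative run, whether another pseudocount, filter, scaling or limma setting or the loss of any 1 library. Those of TPI1 and PGK1 were not. Without replicate 3 of sAKZ692, 7 of the 8 genes were lower and ENO2 was higher, where 49% of all genes passed, 34.5% as higher and 14.5% as lower. In 7 of the 8 genes the treated and DMSO libraries did not overlap, 6 lower and 1 higher with sAKZ692. This held for 50.5% of all genes tested, 14.6% lower and 35.9% higher. The members were chosen with earlier results of these data known, and these counts are a description of them.

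**Figure D1:**
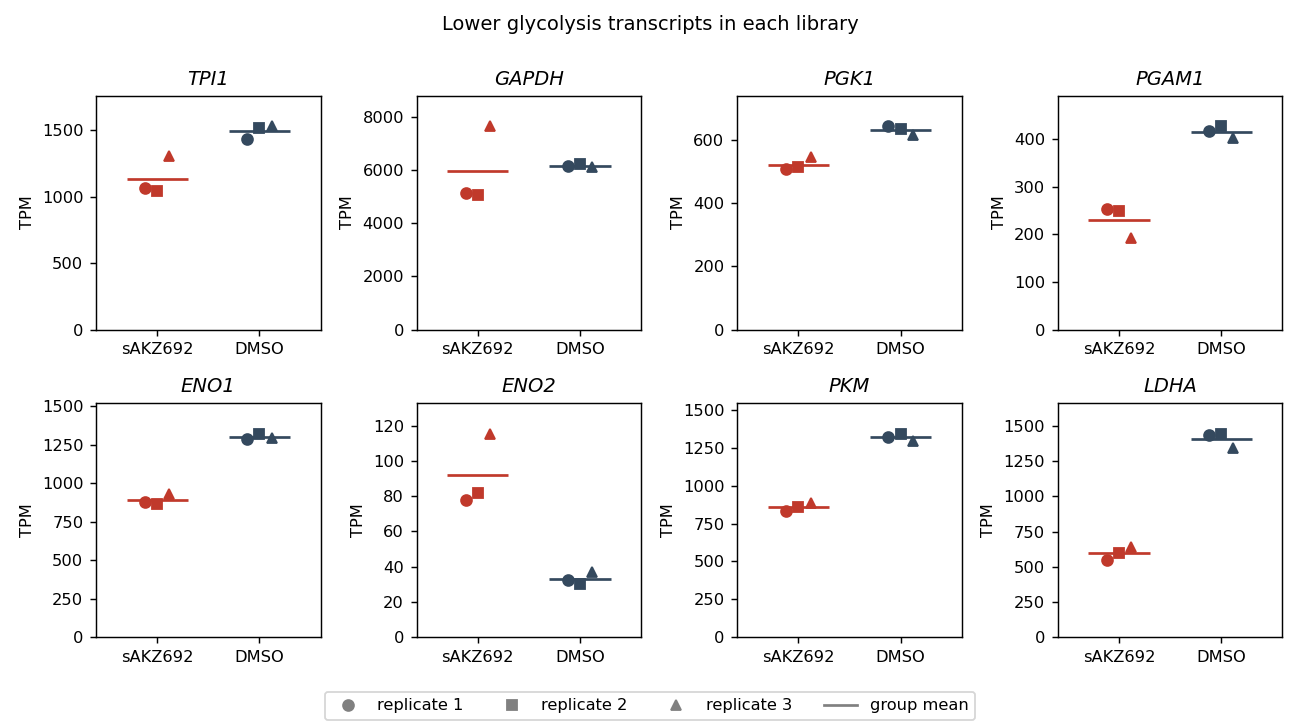
TPM of each gene (vertical axes, each from 0) in the 3 sAKZ692 libraries, red, and the 3 DMSO libraries, dark blue; points are libraries, with a marker shape for each replicate number, and lines are group means. The groups are apart in 7 of the 8 genes, and in GAPDH replicate 3 of sAKZ692, at 7653 TPM, lies above the DMSO libraries while the other 2 lie below them.

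TPI1 encodes triosephosphate isomerase, which interconverts the triose phosphates and so feeds both products of the split hexose into the lower pathway. It had 1062, 1038 and 1302 TPM in replicates 1, 2 and 3 of sAKZ692, against 1434, 1511 and 1529 TPM with DMSO. Every treated library was below every DMSO library, and replicate 3 was the nearest to them. The log2 fold change was -0.40 with a standard error of 0.10 (limma adjusted p = 0.0191). Leaving out a library other than replicate 3 of sAKZ692 ended the call, with adjusted p between 0.0575 and 0.0773, whereas without replicate 3 the log2 fold change was -0.51 (adjusted p = 3.6e-05).

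GAPDH encodes glyceraldehyde-3-phosphate dehydrogenase, the oxidising step that makes NADH. It was the most abundant of the 8 genes in every library and ranked between 1st and 4th of all genes in the table. It had 5143, 5061 and 7653 TPM with sAKZ692 and 6171, 6224 and 6109 TPM with DMSO. The DMSO libraries lay close together, with a coefficient of variation of 0.933%, against 24.8% with sAKZ692. The groups overlapped and the log2 fold change of -0.08 (standard error 0.16) did not pass (limma adjusted p = 0.729). Without replicate 3 it was -0.27 and passed (adjusted p = 0.00027), and without replicate 1 or 2 of sAKZ692 it was 0.01 or 0.02. Whether GAPDH passed therefore turned on replicate 3, and its sign changed when replicate 1 or 2 of sAKZ692 was left out.

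PGK1, phosphoglycerate kinase 1, carries out the first ATP-yielding step. It had 506, 512 and 543 TPM with sAKZ692, against 642, 632 and 613 TPM with DMSO. All treated libraries were below all DMSO libraries, and replicate 3 differed little from the other 2. The log2 fold change of -0.27 (standard error 0.06, limma adjusted p = 0.0151) was the smallest among the falls. It ceased to pass when DMSO replicate 1 or 2 was left out (adjusted p = 0.0760 and 0.0647) and under quantile normalization, in which the log2 fold change was -0.07 (adjusted p = 0.385). Under median-ratio scaling it was -0.46.

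PGAM1 encodes phosphoglycerate mutase 1, which moves the phosphate that enolase then acts on. It had 253, 248 and 192 TPM with sAKZ692, against 417, 427 and 403 TPM with DMSO, a log2 fold change of -0.85 (standard error 0.11, limma adjusted p = 0.0018). The groups did not overlap. Here replicate 3 was the lowest treated library, whereas for every other gene of the 8 it was the highest. Without it the log2 fold change was -0.73 (adjusted p = 1.1e-05). BPGM, which makes 2,3-bisphosphoglycerate and has some mutase activity, was at 22.7 ± 1.44 TPM with sAKZ692 and 25.7 ± 1.16 TPM with DMSO (SD, n = 3) and did not pass (limma adjusted p = 0.165).

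The enolases moved in opposite directions. ENO1 had 882, 862 and 932 TPM with sAKZ692, against 1289, 1322 and 1295 TPM with DMSO, and ENO2 had 78.0, 82.1 and 115 TPM against 32.5, 30.2 and 37.1 TPM. Neither gene's groups overlapped. The log2 fold changes were -0.55 for ENO1 (standard error 0.06, limma adjusted p = 0.0015) and 1.42 for ENO2 (standard error 0.15, limma adjusted p = 0.0011). Replicate 3 had the highest ENO2 of all libraries, and without it the log2 fold change of ENO2 was 1.25 (adjusted p = 1.7e-05). The ENO2 transcript was 8.85%, 9.52% and 12.4% of the ENO1 transcript with sAKZ692, against 2.52%, 2.28% and 2.87% with DMSO. A ratio within a library does not depend on how that library was scaled. The ratio was 3.98-fold higher with sAKZ692, a log2 difference of 1.99 with a standard error of 0.18, and 1.85 without replicate 3. All treated libraries lay above all DMSO libraries, and the exact two-sided permutation p was 0.10, the smallest that 3 against 3 libraries allow.

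ENO3, the muscle enolase, had 53.1, 54.3 and 42.2 TPM with sAKZ692, against 34.2, 28.8 and 32.4 TPM with DMSO (log2 fold change 0.63, standard error 0.12, limma adjusted p = 0.0069). Its exons share 111 bases with exons of PFN1 on the other strand in GENCODE 29, and the authors' use of strand is not given in the sources used here. PFN1, profilin 1, is much more abundant, at 1043 ± 90.7 TPM with sAKZ692 and 1354 ± 5.92 TPM with DMSO (SD, n = 3), so the level of ENO3 is uncertain. In the summed TPM of the 3 enolases, ENO2 made up 7.70%, 8.22% and 10.6% with sAKZ692, against 2.40%, 2.19% and 2.72% with DMSO. ENO3 made up 4.85 ± 0.850% with sAKZ692 and 2.33 ± 0.220% with DMSO (SD, n = 3). The sum itself was 1034 ± 49.2 TPM with sAKZ692 and 1367 ± 12.99 TPM with DMSO, so that the rise of the minor isoforms was smaller in TPM than the fall of ENO1 (exact two-sided permutation p = 0.10, the smallest possible).

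The neuronal maturation markers moved with ENO2. Of 17 listed, 14 were tested, and 11 passed, all as higher, where 24.1% of all genes passed as higher. All 11 also passed without replicate 3 of sAKZ692. PRPH lost its call without any 1 DMSO library, SNAP25 without DMSO replicate 1 and after quantile normalization, and DCX in 4 of the 6 leave-outs and under both scalings (limma adjusted p up to 0.0654, 0.0738 and 0.139). Their summed level was 2254, 2261 and 2957 TPM in replicates 1, 2 and 3 of sAKZ692, against 1341, 1347 and 1336 TPM with DMSO. Most of this sum was UCHL1, a neuronal deubiquitinase, at 1455 ± 182 TPM with sAKZ692 and 756 ± 12.1 TPM with DMSO (SD, n = 3). Replicate 3 was the highest treated library in the sum, as for ENO2, and in each marker other than MAP2, NEFM, RBFOX3 and SYP. For MAP2, NEFM and RBFOX3 it was the lowest. The part of these markers in the rise of ENO2 was not tested. In RNA from whole cultures, a change in the share of cells that express a gene and a change in RNA per cell cannot be told apart.

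**Figure D2:**
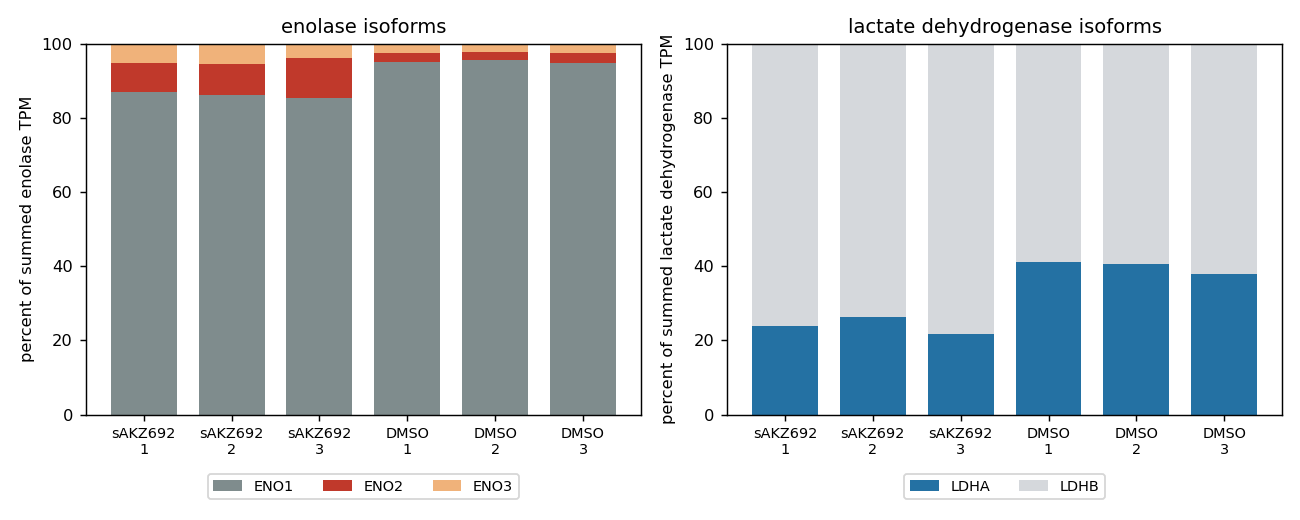
Stacked bars show the percent of summed enolase TPM (left) and of summed lactate dehydrogenase TPM (right) taken by each isoform in each library. ENO2 takes 7.70% to 10.6% of enolase TPM in the sAKZ692 libraries and at most 2.72% in the DMSO libraries, and LDHA takes 21.8% to 26.3% of lactate dehydrogenase TPM with sAKZ692 and 38.1% to 41.1% with DMSO.

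PKM encodes the muscle-type pyruvate kinases, M1 and M2, by alternative splicing, and carries out the last ATP-yielding step. It had 836, 857 and 888 TPM with sAKZ692, against 1325, 1344 and 1299 TPM with DMSO. The groups were far apart relative to their spread, which was 3.04% of the mean with sAKZ692 and 1.71% with DMSO. The log2 fold change was -0.62 (standard error 0.06, limma adjusted p = 0.00089) and -0.64 without replicate 3. The table has 1 row for the gene, so the M1 and M2 transcripts were not separated. PKM and ENO1, neighbours in the pathway, kept nearly the same level as each other in every library. PKM was at 94.8%, 99.4% and 95.2% of ENO1 with sAKZ692, and at 103%, 102% and 100.3% with DMSO, a small difference in which the groups did not overlap.

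LDHA encodes the M subunit of lactate dehydrogenase. It had 551, 600 and 641 TPM with sAKZ692, against 1436, 1446 and 1347 TPM with DMSO, so that the treated mean was 42.4% of the DMSO mean. No treated library reached the level of any DMSO library. The log2 fold change of -1.24 (standard error 0.08, limma adjusted p = 0.00031) was the 6th largest fall among the 9137 genes tested and the largest among the 94 genes whose mean reached 1000 TPM. The mean of LDHA over all libraries, 1003 TPM, was only just above that cutoff. Among those 94 genes, 20 passed as higher and 15, or 16%, as lower, against 24.1% and 8.5% of all genes tested. Without replicate 3 the log2 fold change of LDHA was -1.29 (adjusted p = 3.6e-06).

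LDHB, the gene of the H subunit, was the more abundant of the pair in every library. It had 1744, 1677 and 2305 TPM with sAKZ692 and 2060, 2118 and 2192 TPM with DMSO. The groups overlapped through replicate 3, and the log2 fold change of -0.17 did not pass (limma adjusted p = 0.325). Without replicate 3 it was -0.31 and passed (adjusted p = 0.00042). LDHA was at 31.6%, 35.8% and 27.8% of LDHB with sAKZ692, against 69.7%, 68.3% and 61.4% with DMSO, a log2 difference of -1.07 with a standard error of 0.12. This ratio was lower in all 3 treated libraries than in any DMSO library (exact two-sided permutation p = 0.10, the smallest possible). The sum of LDHA and LDHB was 2295, 2277 and 2946 TPM with sAKZ692, against 3497, 3564 and 3539 TPM with DMSO.

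**Figure D3:**
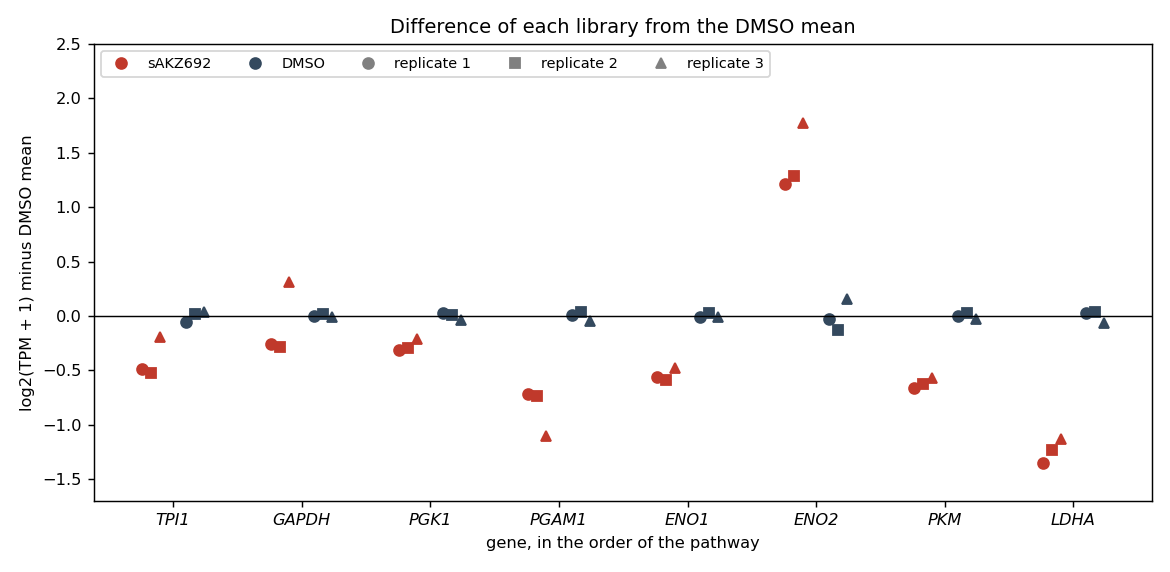
Vertical axis, log2(TPM + 1) of each library minus the mean of the DMSO libraries; horizontal axis, the 8 genes in pathway order; red points are sAKZ692 libraries, dark blue points DMSO libraries, and marker shapes the replicate numbers. Replicate 3 of sAKZ692 is at 0.31 for GAPDH and at -1.11 for PGAM1, where replicates 1 and 2 are at -0.26 and -0.29 and at -0.71 and -0.74.

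The falls were unequal, as ratios within a library show. LDHA was at 65.9%, 70.0% and 72.2% of PKM with sAKZ692, against 108%, 108% and 104% with DMSO, a log2 difference of -0.62 with a standard error of 0.04. Set against GAPDH, a common reference transcript in expression assays, LDHA was at 10.3 ± 1.77% with sAKZ692 and 22.9 ± 0.698% with DMSO (SD, n = 3). PKM was at 14.9 ± 2.90% of GAPDH with sAKZ692 and 21.4 ± 0.167% with DMSO, and ENO1 at 15.5 ± 2.84% and 21.1 ± 0.191%. PGK1 was at 9.84%, 10.1% and 7.10% of GAPDH with sAKZ692 and at 10.4%, 10.2% and 10.0% with DMSO, and this ratio overlapped between the groups (exact two-sided permutation p = 0.20). In all, 10 ratios were compared and 9 did not overlap between the groups. Among single genes tested, 50.5% did not overlap, and ratios of other genes were not counted. Several of the ratios share GAPDH or LDHA, so they are not independent. Each of the 9 had an exact two-sided permutation p of 0.10, or 0.11 adjusted over the 10. With 3 libraries a group no ratio could pass 0.05. Without replicate 3 of sAKZ692 the log2 difference of PGAM1 to GAPDH was -0.46, against -0.78 with all libraries, that of ENO1 to GAPDH -0.30 against -0.47, and that of PGK1 to GAPDH -0.032 against -0.20. By the same leave-out, that of PKM to GAPDH was -0.37 against -0.54, and that of LDHA to GAPDH -1.02 against -1.16.

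Together the 8 transcripts made up 1.52%, 1.51% and 1.86% of the summed TPM of all genes in the table with sAKZ692, against 2.07%, 2.09% and 2.04% with DMSO. In TPM their sum was 9309, 9261 and 12268 with sAKZ692 and 12746, 12937 and 12631 with DMSO. The groups did not overlap (exact two-sided permutation p = 0.10, the smallest possible), and replicate 3 came near the DMSO libraries. Without GAPDH the sum of the other 7 was 4166, 4200 and 4615 TPM with sAKZ692, against 6576, 6713 and 6523 TPM with DMSO. The share of GAPDH in the sum of the 8 was 55.2%, 54.6% and 62.4% with sAKZ692 and 48.4%, 48.1% and 48.4% with DMSO, while that of LDHA was 5.87 ± 0.628% with sAKZ692 and 11.04 ± 0.327% with DMSO (SD, n = 3).

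The order of levels changed in its middle. In all 3 treated libraries it ran GAPDH, TPI1, ENO1, PKM, LDHA, PGK1, PGAM1 and ENO2. In the DMSO libraries LDHA stood 2nd or 3rd and ENO1 5th. There TPI1, LDHA, PKM and ENO1 lay between 1289 and 1529 TPM. TPI1 and LDHA overlapped over the DMSO libraries, and so did PKM and ENO1. With sAKZ692, ENO1 and PKM overlapped, LDHA lay below both in every library, and its lowest library, at 551 TPM, was above the highest of PGK1, at 543 TPM. Among all genes in the table LDHA ranked between 58th and 144th and ENO2 between 942nd and 3369th over the 6 libraries.

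Some values rest on transcripts with close copies. The table holds 20 GAPDH pseudogene rows, 3 each for LDHA and PKM, 2 for PGAM1 and 1 each for ENO1 and TPI1, and none for PGK1 and ENO2. In sum they reached at most 2.04% of LDHA and at most 0.195% of any other member, in any library. The LDHA pseudogene rows fell as LDHA did. LDHAP3 had 3.67, 4.34 and 4.72 TPM with sAKZ692, against 8.73, 8.84 and 8.26 TPM with DMSO (log2 fold change -0.88, limma adjusted p = 0.0024). LDHAP4 and LDHAP7 had means of 50.8% and 48.0% of their DMSO means with sAKZ692 (limma adjusted p = 0.0149 and 0.0052), and LDHAP4 did not pass once DMSO replicate 2 or 3 was left out (adjusted p = 0.0631 and 0.0571). Of the 50-base words of these pseudogene transcripts in GENCODE 29, 50 bases being the read length, 15.8% of those of LDHAP4, 2.503% of LDHAP3 and 1.97% of LDHAP7 also occur in LDHA transcripts. Reads from such words cannot be told apart, and the pseudogene levels are uncertain. LDHA and LDHB share 0 such words, and ENO2 and ENO1 share 1 of the 4633 words of ENO2. LDHB exons share 997 bases with exons of AC010197.2, a protein-coding gene on the same strand that was not analysed here, so the level of LDHB and its ratio to LDHA carry that uncertainty. PGK1 exons share 97 bases with exons of ATP7A on the same strand. No other overlap between exons of the 8 genes and those of a gene in the table was found in that annotation.

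**Figure D4:**
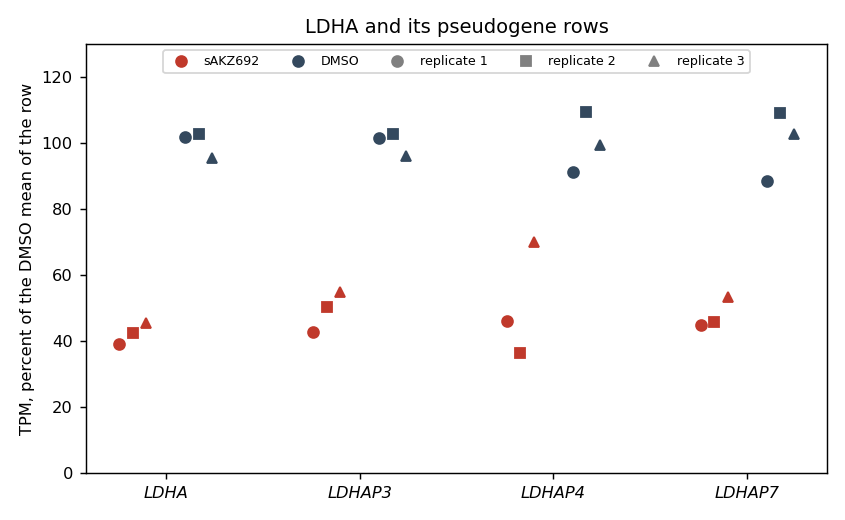
TPM of LDHA and of 3 LDHA pseudogene rows, as percent of each row's own DMSO mean, in the sAKZ692 libraries, red, and the DMSO libraries, dark blue; marker shapes give the replicate number. In all 4 rows the sAKZ692 libraries lie below the DMSO libraries, at 39.1% to 45.5% for LDHA.

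TPI1, ENO2 and GAPDH lie near one another on chromosome 12. RefSeq places 2 protein-coding genes between TPI1 and ENO2 and 18 between GAPDH and TPI1. TPI1 fell and ENO2 rose, while GAPDH did not pass with all libraries and was lower, as TPI1 was, without replicate 3 of sAKZ692. The other members lie on chromosomes 1, 10, 11, 15 and X.

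The rest of the pathway was described with 5 lists of 91 genes, of which 55 were in the table and 49 were tested. Of these, 13 passed as higher and 1 as lower, or 26.5% and 2.04%, against 24.1% and 8.5% of all genes. The median log2 fold change was 0.15, near that of all genes. With the median-ratio scaling 6 were higher and 11 lower, and with quantile normalization 8 were higher and 6 lower. Leaving out DMSO replicate 1, 2 or 3 gave 7, 5 or 4 higher genes, and leaving out replicate 3 of sAKZ692 gave 19 higher genes and 4 lower ones. Of the 14 calls, those of ENO3, PCK2, SHMT2 and PARK7 were kept under every alternative run.

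In glucose uptake and the upper steps, 3 of 11 genes passed, all as higher (27.3%, near the 24.1% of all genes). Median-ratio scaling gave 1 higher and 3 lower, and quantile normalization 2 of each. With replicate 3 of sAKZ692 left out 4 were higher and 1 lower, and with replicate 1 of sAKZ692 or any DMSO library left out at most 1 was higher. HK1, the hexokinase of most tissues, was at 115 ± 4.66 TPM with sAKZ692 and 99.6 ± 1.98 TPM with DMSO (SD, n = 3; limma adjusted p = 0.0443). It held without replicate 3 of sAKZ692 but not without any of the other 5 libraries (adjusted p reached 0.138), nor under median-ratio scaling (0.819), the block of replicate numbers (0.0808) or limma without the trend (0.0858). SLC2A6, a sugar transporter gene, rose by 0.42 on the log2 scale (limma adjusted p = 0.0191), a call lost under either scaling (0.111 and 0.183), without any 1 DMSO library and without replicate 1 of sAKZ692 (adjusted p up to 0.0757). GPI, glucose-6-phosphate isomerase, was at 246 ± 14.5 TPM with sAKZ692 and 267 ± 10.00 TPM with DMSO and did not pass (limma adjusted p = 0.236). SLC2A1, the widespread glucose transporter gene GLUT1, was at 27.6 ± 1.64 TPM and 31.6 ± 1.56 TPM in these groups (limma adjusted p = 0.114). ALDOA, the main aldolase gene, and HK2 were not analysed here.

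In pyruvate and lactate handling, 4 of 16 genes passed, all as higher (25%, near the 24.1% of all genes). Median-ratio scaling gave 2 higher and 4 lower, and quantile normalization 3 higher and 1 lower. With DMSO replicate 2 or 3 left out 1 was higher, and with replicate 3 of sAKZ692 left out 5 were. PCK2, the mitochondrial phosphoenolpyruvate carboxykinase, had 71.5, 78.0 and 33.9 TPM with sAKZ692, against 18.4, 20.2 and 20.0 TPM with DMSO. All treated libraries were above the DMSO libraries, and replicate 3 was the lowest of them. The log2 fold change was 1.51 (standard error 0.28, limma adjusted p = 0.0069) and 1.88 without replicate 3. PDK2, a kinase that switches off pyruvate dehydrogenase, was at 75.7 ± 17.3 TPM with sAKZ692 and 47.8 ± 1.72 TPM with DMSO (limma adjusted p = 0.0170), and PDP2, a phosphatase that switches it on, at 13.2 ± 1.16 TPM and 9.43 ± 0.524 TPM (limma adjusted p = 0.0169; SD, n = 3). Both calls were lost after median-ratio scaling (adjusted p = 0.0583 for PDK2 and 0.0697 for PDP2) and without single libraries, up to 0.0655 and 0.0657, and that of PDP2 also after quantile normalization (0.196). ME3, a mitochondrial malic enzyme, was the remaining gene past the threshold (limma adjusted p = 0.0150), lost after quantile normalization (0.122) and without DMSO replicate 2 or 3 (up to 0.0613). SLC16A1, the lactate transporter gene MCT1, was at 109 ± 3.48 TPM with sAKZ692 and 120 ± 5.70 TPM with DMSO (limma adjusted p = 0.156), and BSG, its chaperone basigin, at 638 ± 134 TPM and 548 ± 13.4 TPM (limma adjusted p = 0.287).

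At the branches from the triose phosphates and phosphoglycerate, 4 of 7 genes passed as higher and 1 as lower, against 24.1% and 8.5% of all genes. Only 2 were higher under either scaling or with any library other than replicate 3 of sAKZ692 left out, and 5 were higher without that library. SHMT2, the mitochondrial serine hydroxymethyltransferase, had 336, 352 and 418 TPM with sAKZ692, against 240, 239 and 237 TPM with DMSO (log2 fold change 0.62, standard error 0.09, limma adjusted p = 0.0028). PSAT1, the aminotransferase of serine synthesis, had 182, 207 and 118 TPM with sAKZ692, against 102, 106 and 99.998 TPM with DMSO. Its log2 fold change was 0.68 (limma adjusted p = 0.0287) and 0.92 without replicate 3, and the call was lost after median-ratio scaling (0.0780) and without any other library (up to 0.0980). GPD1L, a glycerol-3-phosphate dehydrogenase family gene, rose by 0.48 on the log2 scale (limma adjusted p = 0.0108, and 0.119 after quantile normalization). MINPP1 rose by 0.29 (limma adjusted p = 0.0472), a call lost under either scaling (0.376 and 0.318), with no filter on low values, without the trend, with the replicate numbers as a block (0.0798) and without any library except replicate 3 of sAKZ692. PARK7, the DJ-1 gene, was at 203 ± 3.66 TPM with sAKZ692 and 254 ± 5.84 TPM with DMSO (SD, n = 3; limma adjusted p = 0.0067).

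Of 11 glycolysis regulators tested, 1 passed, MXI1, as higher (9.09%, against 24.1% of all genes). Leaving out replicate 3 of sAKZ692 gave 4 higher and 1 lower, leaving out replicate 1 gave 2 higher, and median-ratio scaling gave 2 genes, both lower. MYCN was at 1382, 1376 and 1539 TPM with sAKZ692 and 1390, 1430 and 1347 TPM with DMSO, with overlapping groups (log2 fold change 0.04, standard error 0.07, limma adjusted p = 0.683). MXI1, a MYC antagonist, was at 49.3 ± 11.5 TPM with sAKZ692 and 31.8 ± 3.55 TPM with DMSO (SD, n = 3; limma adjusted p = 0.0265). Its call was lost under either scaling (adjusted p = 0.0839 and 0.0599) and without DMSO replicate 2 or 3 (up to 0.0972). EGLN1, the main oxygen-sensing prolyl hydroxylase of HIF, was at 13.3 ± 0.805 TPM with sAKZ692 and 14.6 ± 0.570 TPM with DMSO (limma adjusted p = 0.306). HIF1A, KEAP1 and NFE2L2 were not analysed here.

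**Figure D5:**
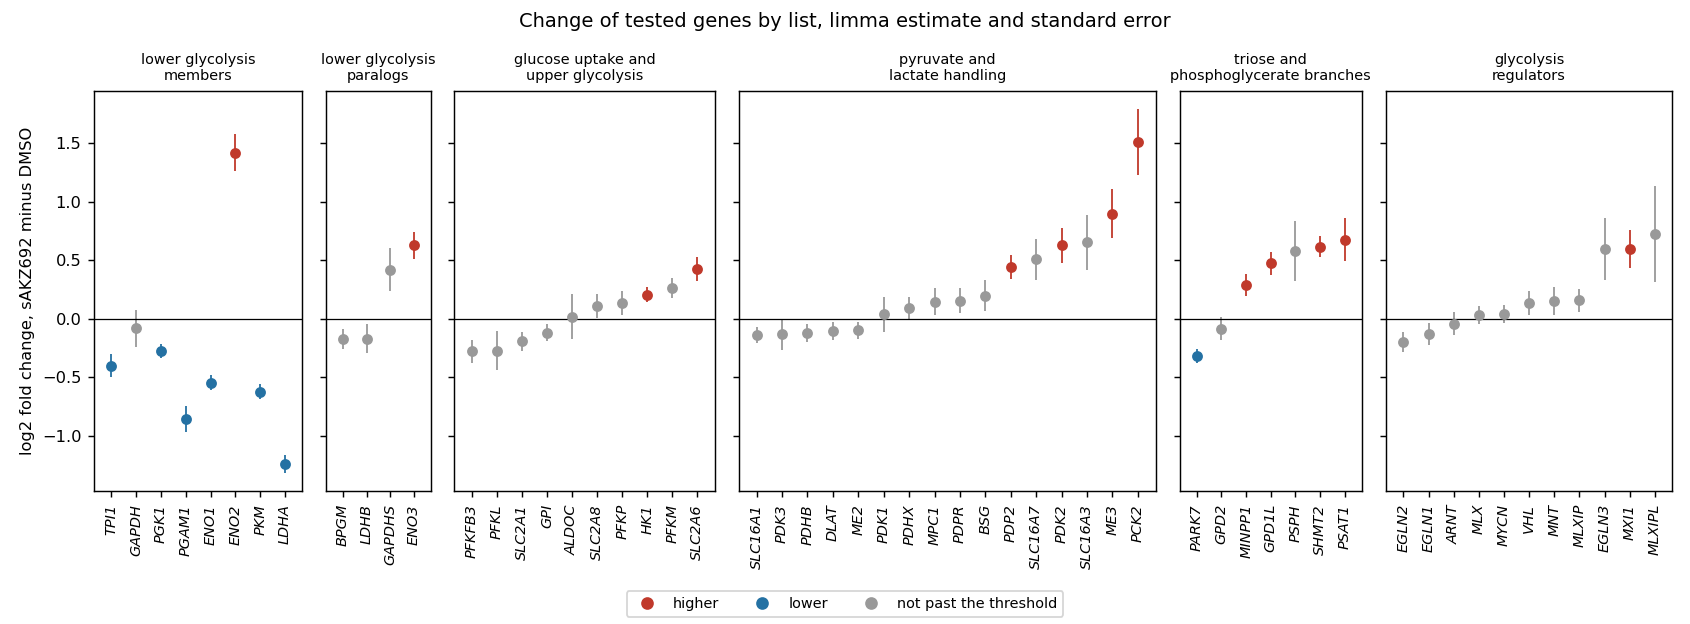
Vertical axis, log2 fold change (sAKZ692 minus DMSO) with its standard error from limma, for the 8 members in pathway order and for 48 other tested genes of the 5 lists, each list sorted by its values; red, higher, blue, lower, grey, not past an adjusted p of 0.05. Of the other genes drawn 12 are higher and 1, PARK7, is lower, while 6 of the 8 members are lower.

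The genes whose pattern over the 6 libraries was most like that of LDHA and of ENO2 were sought among the 6161 other genes whose mean reached 10 TPM. Likeness was the root mean square difference of log2(TPM + 1), each gene centred on its own mean. Nearest to LDHA were POLA2, the accessory subunit of DNA polymerase alpha (0.09), NCAPH, a condensin subunit (0.11), CENPU, a centromere protein (0.13), and E2F7, a repressor of the E2F family (0.14). POLA2 had 49.0, 58.0 and 55.4 TPM with sAKZ692, against 117, 116 and 117 TPM with DMSO. Nearest to ENO2 were PRCD (0.08), MYT1, a neural zinc finger factor (0.09), PRKCZ, an atypical protein kinase C (0.09), and CALCOCO1 (0.10). MYT1 had 19.8, 20.0 and 26.0 TPM with sAKZ692, against 8.10, 7.14 and 7.86 TPM with DMSO. Its highest treated library was replicate 3, a likeness to ENO2 that follows from how MYT1 was picked. All candidates were measured in the same 6 libraries, which form 2 groups.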

How the data were processed

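RNA was sequenced as single-end reads of 50 bases, per the labels' protocols, and kallisto was used, per the submitters' processing notes. The sources used here name neither its version nor the annotation, genome build or strand setting. The authors deposited 1 table of TPM with 1 row per gene symbol. The listed genes sum to 61.2% to 65.9% of the full TPM scale per library, and no value is 0. Log2(TPM + 1) of genes whose mean reached 1 TPM was compared with limma 3.58.1 in R 4.3.3, with a mean-variance trend, over 9137 genes. Ratios and sums were tested with exact two-sided permutation tests over libraries.

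The members and gene lists were chosen with earlier results of these data known. Named are the 8 members, both genes of each ratio, listed genes past the threshold first and then others of the lists, the 4 genes most like LDHA and ENO2, pseudogene rows and the leading markers. PFN1, ATP7A, AC010197.2, TH, PRPH, SNAP25, DCX, MAP2, NEFM, RBFOX3 and SYP were chosen after their values or overlaps were seen. The values of 2 genes counted in the lists are not reported here. Promoters come from RefSeq (GRCh38.p14). Shared 50-base words and exon overlaps come from GENCODE 29, which need not be the annotation the authors used. Alternatives were other pseudocounts, filters, scalings and limma settings, the replicate numbers as a block, and leaving out each library.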

Additional observations from a re-analysis of the deposited data

How the results depend on the processing

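The split of the calls over all genes into higher and lower depended most on the scaling, and their number also moved with single libraries. With median-ratio scaling 1242 genes were higher and 1754 lower, and with quantile normalization 1073 and 1188, so that 41.5% and 47.5% of the calls were higher, against 73.9% as deposited. The median log2 fold change was then -0.03 under both. Leaving out 1 library gave 1217 to 3132 higher and 404 to 1321 lower genes, the upper ends without replicate 3 of sAKZ692. Of the 8 members, 1 was higher under every alternative run, and 6 were lower except after quantile normalization (5) and without single libraries (4 to 7). For the other glycolysis lists together, median-ratio scaling gave 6 higher and 11 lower, quantile normalization 8 and 6, and leaving out 1 library 4 to 19 higher and 1 to 4 lower. Leaving out 1 library moved the log2 fold change of TPI1 between -0.51 and -0.34, of PGK1 between -0.30 and -0.25 and of GAPDH between -0.27 and 0.025. In all 3 genes the lowest value came without replicate 3 of sAKZ692. The highest came without replicate 2 for TPI1 and GAPDH and without replicate 1 for PGK1. After quantile normalization that of PGK1 was -0.070. The summed TPM of the 8 members differed by -3958 after median-ratio scaling, against -2492 as deposited, and by -3486 to -1983 with 1 library left out. The log2 differences of the ratios ENO2 to ENO1 and LDHA to LDHB stayed between 1.85 and 2.09 and between -1.16 and -0.98 with 1 library left out. The causes were not tested.

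The replicate numbers showed no clear pairing of the libraries. Deviations from the group means correlated at 0.06, -0.02 and 0.04 between same-numbered libraries, and not every library correlated best with its own number. With 3 libraries a group these values cannot settle whether same-numbered libraries were handled together. With the replicate block 1863 genes were higher and 636 lower, and of the members 1 was higher and 6 were lower. Among the 29 other genes followed, HK1, MINPP1 and DCX lost their calls under the block (adjusted p = 0.0808, 0.0798 and 0.0695). Of 430 values for those genes over the alternatives, 363 kept their side of the threshold and none changed direction. TPM carries no depth, so counting error could not be given.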
